A study of Mus musculus with 6 samples.

Results

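The proteasome genes of mouse regulatory T cells were described in bone marrow from mice with and without myeloma. They were chosen by name: every gene row whose symbol starts with Psma to Psmg and a digit. The pattern took 54 of 47643 gene rows. Of these, 4 pseudogene rows were left out, among them Psmb5-ps and Psmb6-ps, whose names end in -ps with no number. The remaining 50 genes were the members, and 48 of them had enough reads to be tested. The 2 untested members, Psma8, the testis form of an alpha subunit, and Psmb11, the thymus form of a catalytic subunit, had at most 5 and 6 reads in any library.

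The cells were flow-sorted as CD4+ and FOXP3-GFP+, with GFP as a reporter of Foxp3, the transcription factor that defines regulatory T cells, in both groups. The myeloma group held 3 libraries from mice injected with Vk*MYC, a mouse model of multiple myeloma, with the replicate numbers 3, 4 and 5. The control group held 3 libraries from control mice, numbered 1, 3 and 5. The series title concerns the type I interferon receptor in the expansion of these cells, but no library carried a block of that receptor by its labels. The sources used here give no age, strain, time after injection or statement on pooling. Nothing but the design text ties a library to an animal, and a p-value reflects only variation among the 6 libraries, which may be technical.

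The proteasome is the protease that degrades proteins tagged with ubiquitin. Its core, the 20S particle, is a stack of rings of alpha subunits and beta subunits, of which Psmb5, Psmb6 and Psmb7 encode the catalytic ones, and the 19S particle recognizes and unfolds the substrate. Interferons induce the alternative catalytic subunits Psmb8, Psmb9 and Psmb10, which replace those in the immunoproteasome, and Psme1 and Psme2, the subunits of the activator PA28, and this form favours peptides that bind class I molecules.

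Total expected counts were between 10240620 and 13314631 a library. The members took 0.444 to 0.475% of them in myeloma and 0.354 to 0.381% in control libraries. The sorted identity was checked on 7 regulatory T cell markers, Foxp3 and Cd4 among them, whose summed level was 4513 to 4728 CPM (read counts scaled to library size) in myeloma and 4156 to 5521 in control libraries, and none of the 7 passed the test. Markers of other cells were also read. Plasma cell markers summed to 87.0, 202 and 316 CPM in the myeloma libraries (in the order 3, 4, 5), against 57.2 to 66.2 in controls. Summed macrophage markers were 38.6, 74.2 and 319 CPM in the same 3 myeloma libraries and 21.7 to 51.9 in controls. Summed neutrophil markers were 133 to 458 CPM in myeloma and 62.6 to 179 in control libraries. For B cell markers these ranges were 31.1 to 75.2 and 47.7 to 291, and for red cell genes 3843 to 4767 and 6711 to 14730.

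Start-site sequence is shown for 4 of the inducible genes and for the counterparts Psmb5 and Psmb6, since these are the genes the comparison turns on. RefSeq windows on GRCm38.p6, 250 bases before to 50 after a start, were held for 42 of the 50 members. The stretches below hold a match, in capitals, to TTCNNNGAA (the interferon gamma activated site) in Psmb8, to GAAA, any 2 bases and GAAA again (like the interferon-stimulated response element) on the reverse strand in Psme1, and to TGACNNNGC (like the antioxidant response element, which NRF1 and NRF2 bind) in Psmb5 and Psmb6. They lie at chr17:34198088-34198117 on the plus strand, chr14:55578493-55578522 on the plus strand, chr14:54618023-54618052 on the minus strand and chr11:70525338-70525367 on the plus strand.
Psmb8: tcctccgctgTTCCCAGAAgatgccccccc
Psme1: cgagctgtgcTTTCGCTTTCccttcccgct
Psmb5: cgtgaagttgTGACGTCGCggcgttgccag
Psmb6: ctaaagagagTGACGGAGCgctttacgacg

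Both strands were searched for 4 motifs, chosen with the results known. TTCNNNGAA was in the windows of 3 members and in 8.30% of all 32851 windows. The element-like pair of GAAA was in those of 5 members and 3.44% of all windows, and TGACNNNGC in those of 6 members and 12.4%. The fourth, TGANNNNGC, which holds every match of the third, was in those of 24 members and 41.3%. Matches were not limited to the inducible genes: beside Psme1, the pair of GAAA was in windows of Psmb3, Psmd4, Psmd9 and Psmg4. The stretches upstream of Psmb10 and Psme2, at chr8:105938445-105938642 and chr14:55591114-55591351, both on the minus strand, are shown because these genes also rose. These stretches end where the annotated gene begins and hold none of the 4 motifs. The Psme2 windows run further and hold TGANNNNGC at chr14:55591080-55591088, outside the stretch shown. The matches shown for Psmb8 and Psme1 lie inside the annotated genes instead, so the stretches of these 4 genes are not alike in position.
Psmb10: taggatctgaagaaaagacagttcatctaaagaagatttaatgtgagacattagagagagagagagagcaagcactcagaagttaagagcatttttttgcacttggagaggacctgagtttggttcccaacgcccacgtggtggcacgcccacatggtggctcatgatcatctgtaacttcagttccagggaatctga
Psme2: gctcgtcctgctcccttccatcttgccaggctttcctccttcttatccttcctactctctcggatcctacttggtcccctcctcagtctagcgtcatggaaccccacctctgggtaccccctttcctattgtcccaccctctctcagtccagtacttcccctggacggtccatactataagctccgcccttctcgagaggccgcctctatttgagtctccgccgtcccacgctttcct
A match describes letters only. The windows of Psmb9 and Tap1, neighbours that are read in opposite directions, share 275 of 300 bases.

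All 5 inducible genes rose in myeloma, by 1.68 to 2.07 fold. Over the 48 tested members, 16 rose and none fell by edgeR's quasi-likelihood test at an adjusted p of 0.05, where 6.33% of the 13235 genes tested rose and 4.69% fell. No member fell at an unadjusted p under 0.05 either, and no alternative tool or setting called one lower. The median log2 fold change was 0.29 over the members and 0.02 over all genes tested. In 28 members every myeloma library was above every control library, which held for 17.3% of all genes tested. In sorted bulk cells, more cells of a kind and more RNA per cell cannot be told apart.

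Psmb8 encodes the inducible form of the chymotrypsin-like subunit and lies on chromosome 17 (GRCm38, chr17:34197721-34201454). Its level was 442, 423 and 446 CPM in the myeloma libraries (in the order 3, 4, 5, here and below) and 258, 234 and 256 CPM in the controls (in the order 1, 3, 5). The groups were far apart against SDs of 12.2 and 13.2 CPM (log2 fold change 0.81 ± 0.08 SE, edgeR adjusted p = 0.0006). Psmb9, the inducible counterpart of Psmb6, lies near it (chr17:34181987-34187764). Psmb9 had 268, 259 and 265 CPM in the myeloma and 144, 129 and 109 CPM in the control libraries. It had the largest change of the 48 tested members, at 1.05 ± 0.11 SE on the log2 scale (edgeR adjusted p = 0.0006). Psmb10, the inducible counterpart of Psmb7, lies on chromosome 8 (chr8:105935735-105938444). Psmb10 had 207, 168 and 179 CPM in myeloma and 103, 93.0 and 92.3 CPM in control libraries. Myeloma replicate 3 was the highest, and the groups did not overlap (log2 fold change 0.94 ± 0.10 SE, edgeR adjusted p = 0.0008).

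Psme1 and Psme2 encode the alpha and beta subunits of PA28, which opens the core without ubiquitin, and lie close together on chromosome 14 (chr14:55578123-55581529 and chr14:55587441-55591113). Psme1 had 404, 405 and 399 CPM in myeloma and 252, 232 and 235 CPM in control libraries. Its myeloma values had an SD of 3.34 CPM, and the log2 fold change was 0.75 ± 0.08 SE (edgeR adjusted p = 0.0007). Psme2 had 261, 241 and 232 CPM in myeloma and 139, 131 and 118 CPM in control libraries, at 0.92 ± 0.09 SE on the log2 scale (edgeR adjusted p = 0.0006). Psme2b, a near copy of Psme2 that may take reads of it, also rose, with 44.4, 42.0 and 52.5 CPM against 34.7, 33.7 and 28.8 (log2 fold change 0.52, adjusted p = 0.0307). Of the 6 fits that left out 1 library, Psme2b kept that call in the one without control replicate 1, with adjusted p up to 0.103. Summed, the 2 copies had 291 ± 12.3 CPM in myeloma and 162 ± 13.3 in control libraries (SD, n = 3), so dividing reads between them leaves the rise in place.

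Of the marker sums given above, those of plasma cells and red cells did not overlap between the groups, and the others did. The part of plasma cell, macrophage, neutrophil, B cell and red cell RNA in the differences of the inducible genes was not tested. The 5 inducible genes were called in each of the 16 alternative fits, with log2 fold changes of 0.60 to 1.17 and adjusted p-values up to 0.0155. Exons of Psmb8 and Psmb9 overlap those of Gm20496 and Tap1 on the other strand over 14.7% and 5.79% of their bases, and the library kit does not mark strand.

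**Figure D1:**
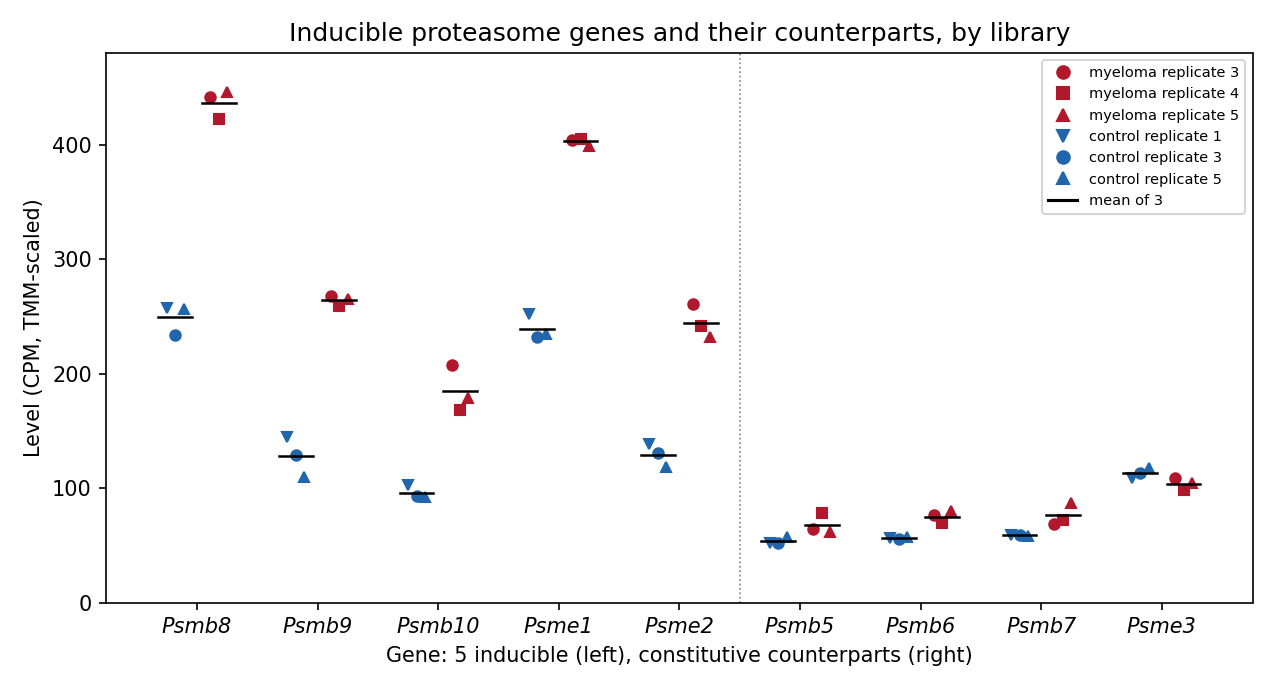
Level in CPM (linear axis from 0) of the 5 inducible genes and 4 constitutive counterparts in each library; points are libraries, lines are means of 3. Myeloma libraries lie above all controls for the 5 inducible genes and for Psmb5, Psmb6 and Psmb7, and for Psme3 the groups overlap.

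The constitutive subunits moved less. Of 31 (median log2 fold change 0.27), 10 rose and none fell, where 6.33% of all genes tested rose. The 31 subunits divided by particle, a contrast that was formed after their values were seen. In the 20S core 9 of 14 subunits rose (median 0.38), against 1 of 17 in the 19S particle (median 0.13). Sem1, a 19S lid subunit whose symbol the name rule does not take, is not in that count and rose too. All 14 core subunits had a positive log2 fold change, from 0.19 for Psmb3 (edgeR adjusted p = 0.126) to 0.81 for Psma5. After the length and GC correction described next Psmb3 had -0.0208. In 13 of the 14 every myeloma library was above every control in CPM, which held for 17.3% of all genes tested. In TPM (the deposited level per length) the core sum overlapped between the groups. It was 2488, 2422 and 2136 in myeloma and 2254, 2065 and 2199 in control libraries. The summed TPM of all 31 constitutive subunits overlapped too. For the 5 inducible genes the TPM sum was 2287 to 2451 in myeloma and 1348 to 1555 in control libraries.

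**Figure D2:**
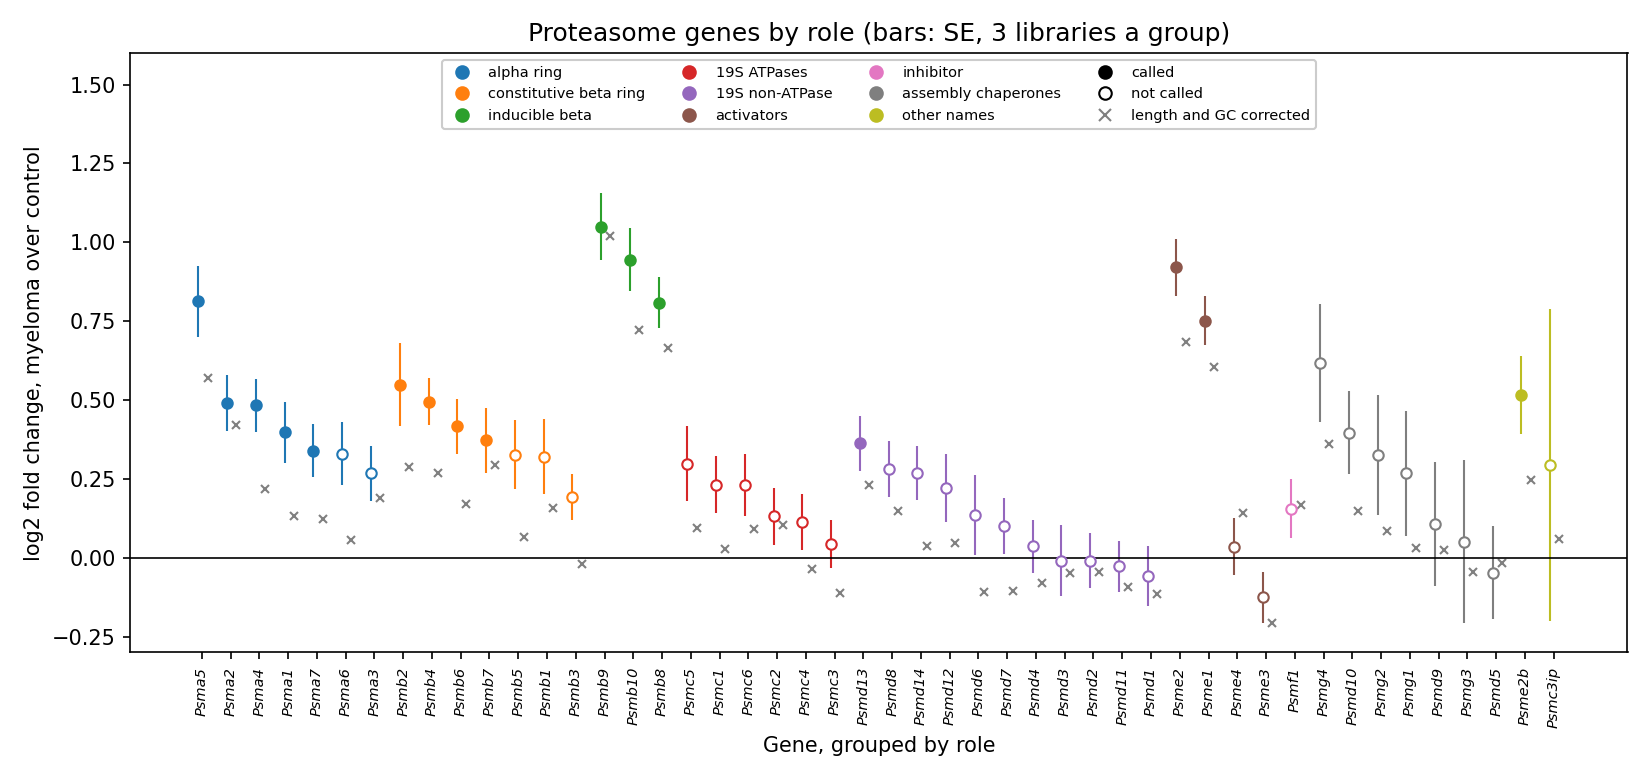
log2 fold change, myeloma over control, of the 48 tested members by role; bars are SE, filled points passed the test and crosses give the value after correction for transcript length and GC content. The 5 inducible genes and Psma5 stand highest, and the crosses of most core subunits lie lower than their points.

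Transcript length also differed between the core and 19S subunits. Over all genes tested, the median log2 fold change was 0.32 for the 1099 genes whose longest transcript is under 1000 bases, 0.22 from 1000 to 2000 bases, 0.03 from 2000 to 4000 and -0.12 above 4000. The 14 core subunits had a median longest transcript of 1220 bases and the 19S subunits of 1983 bases. After a correction for length and GC content, which was added after seeing the data, 2 of 14 core subunits rose. They were Psma5 (log2 fold change 0.57, adjusted p = 0.0226 by edgeR) and Psma2 (0.42, adjusted p = 0.0361). The core median was then 0.18 and the 19S median -0.03, both lower than before, with the core still above the 19S. All 5 inducible genes rose after the correction too, by 0.61 to 1.02 on the log2 scale, where 3.42% of all genes tested rose. The correction took the longest annotated transcript of each gene, 2911 bases for Psma2. Whether the expressed form is as long was not tested. The source of the length trend was not tested. With the replicate number as a block, 6 members rose, the 5 inducible genes and Psma5, where 2.74% of all genes tested rose.

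**Figure D3:**
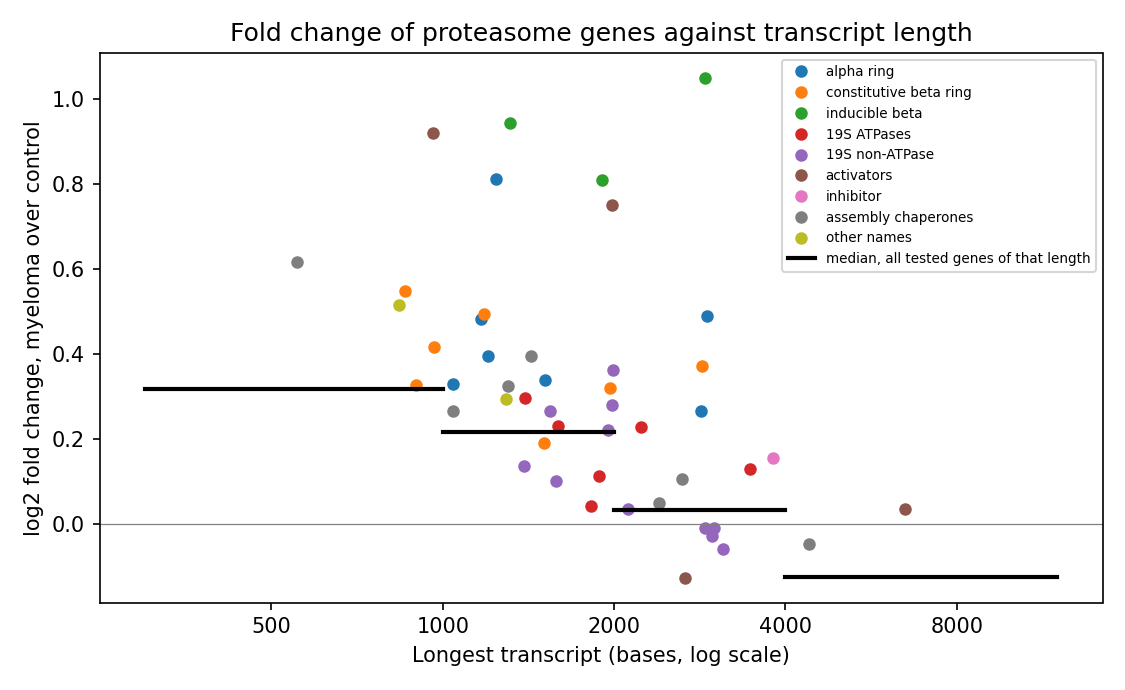
log2 fold change of the 48 tested members against their longest transcript in bases (log axis); black lines give the median of all tested genes in 4 length classes, and the outer ends of the first and last line are arbitrary. Most core subunits are short and lie near or somewhat above the lines for their length, while the 5 inducible genes and Psma5 lie well above. Psma2, Psma3 and Psmb7 are longer, at 2911, 2846 and 2849 bases, and Psma2 lies at 0.49 where the line is at 0.03.

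The alpha ring forms the gate of the core. Of its 7 genes 5 rose. Psma5 changed most, with 75.7, 70.3 and 91.0 CPM in myeloma and 45.5, 47.0 and 42.5 in control libraries (log2 fold change 0.81 ± 0.11 SE, edgeR adjusted p = 0.0037). Its size was like that of the inducible genes, and it was called in every fit that left out 1 library. Psma2 had 135, 131 and 119 CPM against 86.4, 98.7 and 88.9 (log2 fold change 0.49, adjusted p = 0.0113). Psma4 had 98.0, 96.4 and 98.6 CPM against 75.7, 67.8 and 66.2 (0.48, adjusted p = 0.0096). Both had groups well apart, but Psma2 lost its call without myeloma replicate 3 or 4 (adjusted p = 0.0531 and 0.0501) and Psma4 without control replicate 3 (adjusted p = 0.0552). Psma2 was the most abundant ring gene per length, at 206 TPM (the deposited level per length) on average. Psma1 had 104, 89.9 and 89.1 CPM against 72.6, 66.5 and 76.2 (0.40, adjusted p = 0.0330). Psma7 had 99.0, 111 and 96.2 CPM against 79.4, 80.5 and 82.0 (0.34, adjusted p = 0.0353). These 2 were the weakest: leaving out any library but myeloma replicate 5 lost both calls, with adjusted p up to 0.138 and 0.129. The lowest change of the ring was that of Psma3, 0.27 (adjusted p = 0.0798), and Psma6 had 0.33 (adjusted p = 0.0668).

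Of the 7 constitutive beta genes 4 rose. Psmb4, a structural subunit, had 154, 160 and 147 CPM in myeloma and 109, 109 and 110 in control libraries (log2 fold change 0.49 ± 0.07 SE, edgeR adjusted p = 0.0057). It was the most abundant of these genes per length, at 253 TPM, and kept its call without any 1 library. Psmb2, also structural, had 52.8, 71.3 and 58.4 CPM against 37.8, 46.5 and 40.5 (0.55, adjusted p = 0.0317). Psmb6, the caspase-like subunit, had 76.5, 69.4 and 79.6 CPM against 56.3, 55.2 and 57.5 (0.42, adjusted p = 0.0189). The controls were tight for Psmb6 and the myeloma libraries wider, as they were for Psmb7. Psmb7, the trypsin-like subunit, had 68.9, 72.1 and 87.2 CPM against 58.7, 59.0 and 58.6 (0.37, adjusted p = 0.0499), and no fit that left out 1 library called it (adjusted p 0.063 to 0.152). Psmb5, the chymotrypsin-like subunit, had 64.0, 77.8 and 61.4 CPM against 52.2, 52.1 and 57.6 and was not called (0.33, SE 0.11, adjusted p = 0.0893). Psmb2 lost its call without myeloma replicate 4 or any 1 control, and Psmb6 without myeloma replicate 3 or any 1 control, with adjusted p up to 0.104 and 0.0886.

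Each inducible gene was set against its constitutive counterpart within a library, in TPM, which is scaled for gene length. This scaling need not remove the length trend between the groups given above, and its part in the ratios was not tested. The longest transcripts of a pair can differ, with 1907 bases for Psmb8 and 899 for Psmb5, and 962 for Psme2 and 2664 for Psme3. The counterpart of the PA28 genes was taken as Psme3, which encodes the nuclear activator PA28 gamma. Psme3 had 108, 98.2 and 105 CPM in myeloma and 108, 113 and 118 in control libraries, with overlapping groups (log2 fold change -0.13 ± 0.08 SE, edgeR adjusted p = 0.349). The ratio of Psmb8 to Psmb5 was 4.78, 3.67 and 5.19 in myeloma and 3.14, 2.96 and 3.08 in control libraries. That of Psmb9 to Psmb6 was 1.92, 2.13 and 1.92 against 1.496, 1.28 and 1.10, and that of Psmb10 to Psmb7 was 2.72, 2.11 and 1.86 against 1.58, 1.43 and 1.43. Transcripts of the inducible form thus outnumbered those of the constitutive form in every library of both groups, and more so in myeloma, by 1.47, 1.548 and 1.49 fold.

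The ratio of Psme1 to Psme3 was 10.5, 12.8 and 11.7 in myeloma and 6.001, 5.63 and 5.73 in control libraries. The ratio of Psme2 to Psme3 was 9.46, 10.2 and 10.5 against 4.30, 4.23 and 4.35. These were 2.01 and 2.34 fold higher in myeloma. None of the 5 ratios overlapped between the groups, and each had p = 0.1 in a two-sided exact permutation test (0.1 after Benjamini-Hochberg adjustment over the 5), which is the smallest p that 3 against 3 can give, so this design cannot reach 0.05.

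**Figure D4:**
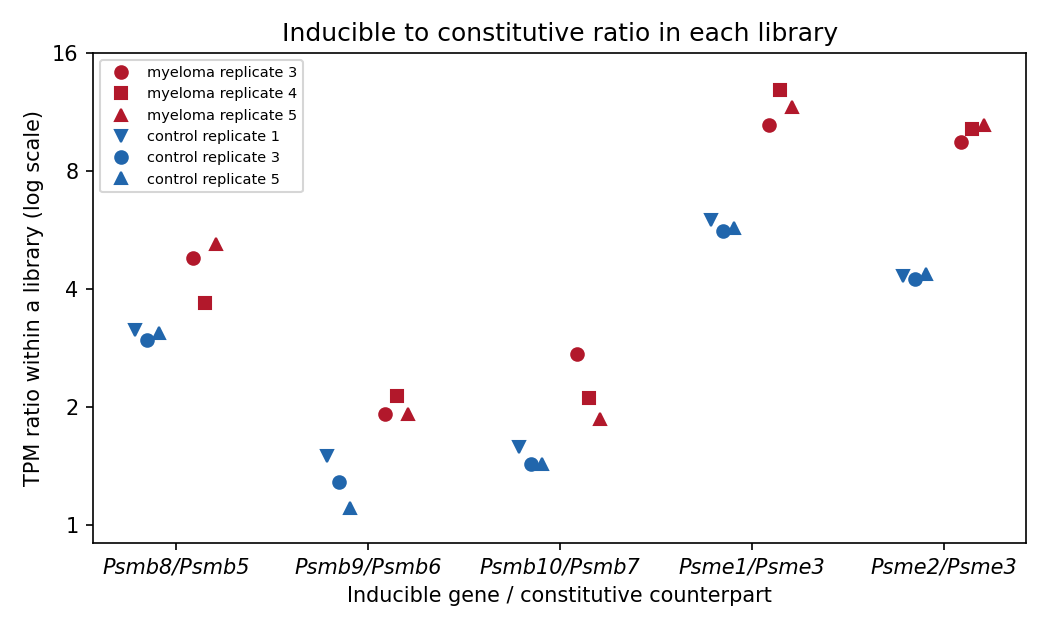
Ratio of TPM values, inducible gene over counterpart, in each library (log axis); points are libraries. All 3 myeloma points lie above all 3 control points for each of the 5 ratios.

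In the 19S particle none of the 6 ATPases, which unfold the substrate, was called. Their log2 fold changes ran from 0.04 for Psmc3 (adjusted p = 0.765), the most abundant at 128 TPM, to 0.30 for Psmc5 (adjusted p = 0.138), and Psmc2 was the least abundant at 60.7 TPM. Of the 11 other subunits only Psmd13, a scaffold of the lid, rose, with 75.2, 74.6 and 77.1 CPM against 63.1, 54.2 and 59.0 (log2 fold change 0.36, adjusted p = 0.0315 by edgeR). It kept the call in 1 of the 6 fits that left out a library, the one without control replicate 1, with adjusted p up to 0.137. Of its exon bases 10.1% overlap Sirt3 on the other strand. In TPM Psmd13 did not show this rise, with 69.7, 78.5 and 70.5 in myeloma and 75.2, 68.4 and 208 in control libraries. The lowest change was -0.06 for Psmd1 (adjusted p = 0.743), also the least abundant at 29.8 TPM, and the most abundant was Psmd4 at 169 TPM with a change of 0.04 (adjusted p = 0.829).

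None of the 7 assembly chaperones was called (median log2 fold change 0.27). The highest change was 0.62 for Psmg4 (SE 0.19, adjusted p = 0.0652), whose groups did not overlap and which was also the most abundant of them at 53.6 TPM. The lowest was -0.05 for Psmd5 (adjusted p = 0.870), and Psmg3 was the least abundant at 19.7 TPM (0.05, adjusted p = 0.923). The activator Psme4, PA200, had 0.04 (adjusted p = 0.843) and the inhibitor Psmf1, PI31, 0.16 (adjusted p = 0.320). Psmc3ip, a recombination factor whose name matches but which is no subunit, had 3.25 TPM and 0.29 (SE 0.49, adjusted p = 0.747).

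Genes that work with the proteasome were read from lists chosen with earlier results of these data known. Over all genes tested 6.33% rose and 4.69% fell. Of 17 tested associated and assembly genes 2 rose and none fell (median -0.11): Pomp, the maturation factor of the core, with 91.1 ± 2.63 CPM against 60.7 ± 2.85 (SD, n = 3; log2 fold change 0.59, adjusted p = 0.0037 by edgeR), and Sem1 with 84.6 ± 14.7 against 53.8 ± 3.96 (0.66, adjusted p = 0.0173). Of 6 ubiquitin genes none passed (median 0.22). In the NRF1 pathway, which raises proteasome genes when the proteasome is inhibited, 2 of 13 rose, Mafg (0.46, adjusted p = 0.0196) and Keap1 (0.57, adjusted p = 0.0392), and 1 fell, Mafk (-0.87, adjusted p = 0.0260), with a median of 0.01. Of 10 cytosolic peptidases, which trim proteasome products, Rnpep alone rose (0.37, adjusted p = 0.0325), and no fit leaving out a library called it.

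Of 11 class I peptide loading genes 8 rose and none fell (median 0.41), among them the transporter Tap1 (792 ± 48.0 against 446 ± 14.9 CPM, log2 fold change 0.83, adjusted p = 0.0008), Tapbp (0.63, adjusted p = 0.0072), Pdia3 (0.41, adjusted p = 0.0133), Tap2 (0.48, adjusted p = 0.0164), B2m (0.59, adjusted p = 0.0185) and Tapbpl (0.44, adjusted p = 0.0225). After the length and GC correction 4 of the 11 rose (median 0.31), Tap1, Tap2, Tapbp and Pdia3, while B2m had 0.31 (adjusted p = 0.117) and Tapbpl 0.35 (adjusted p = 0.0829). In the main fit 6.33% of all genes tested rose, and 3.42% after the correction. Of 8 regulators of the interferon response 5 rose and none fell (median 0.67). Among them, Stat2, a signal transducer of the type I interferon receptor, had 243 ± 34.3 CPM in myeloma and 89.0 ± 15.03 in control libraries (1.45, adjusted p = 0.0006), and Irf9, its DNA-binding partner, 280 ± 12.4 against 159 ± 21.0 (0.82, adjusted p = 0.0027). Nlrc5, the class I transactivator, had a log2 fold change of 0.52 (adjusted p = 0.0141) and Irf1 0.45 (adjusted p = 0.0397). Tap1, Tapbp, Stat2 and Irf9 kept their calls without any 1 library, and of the 6 fits leaving one out Irf1 kept it in the one without control replicate 3. Pomp kept its call too. Nlrc5 lost it without myeloma replicate 3 or control replicate 5 (adjusted p up to 0.0598), and the others named from these lists lost theirs in 2 to 6 of the 6 fits, with adjusted p up to 0.148. After the length and GC correction Sem1 (adjusted p = 0.0505), Keap1 (0.0552), Rnpep (0.1401) and Irf1 (0.127) lost theirs as well.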

How the data were processed

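RNA was measured in 6 libraries, 3 myeloma and 3 control, grouped by the labels, from total RNA (RNeasy Micro) with the NEBNext Ultra kit. Picard, STAR, RSEM, DESeq2 and the build mm10 appear in the submitters' processing notes; no source used here gives versions. The deposited tables hold RSEM expected counts, the authors' estimates of reads per gene, not normalized. They also hold TPM, scaled by the authors for length and depth, per the file headers. Of 47643 gene rows, 47224 matched reference names.

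Expected counts were rounded, filtered with filterByExpr (minimum count 10, total 15), scaled by TMM and tested with edgeR 4.0.16 (R 4.3.3), Benjamini-Hochberg over 13235 genes, threshold 0.05; the procedure was tested on simulated data. CPM uses TMM-scaled sizes; ratios use TPM with no pseudocount. Alternatives were other scalings and filters, DESeq2 1.42.0, limma-voom 3.58.1, removed immunoglobulin, haemoglobin and mitochondrial genes, a replicate block, leaving out each library, and, added after seeing the data, a length and GC correction (splines with 4 degrees of freedom). Named genes were the 5 inducible genes, their counterparts, called members, the extremes of each role group and up to 6 called genes a pathway list. Members and lists were chosen with earlier results of these data known. Pith1 in a list matched no row. RSEM divides reads among near copies by a model. The values of 1 gene called in a pathway list are not reported here.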

Additional observations from a re-analysis of the deposited data

How the results depend on the processing

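The 5 inducible genes were called under all 16 alternatives, no member was called lower under any, and the 5 ratios kept their direction. Counts of the constitutive genes did not hold. Replicate numbers are shared by 2 pairs of libraries only, and nothing ties a number to an animal or day, so the numbers were not taken as pairs. The deviations of these 2 pairs from the group means correlate by 0.03 and 0.10. With 3 libraries a group, these correlations cannot tell whether the numbers mark pairs. With the replicate block 6 members rose, 1 constitutive subunit, 1 core subunit and 0 19S subunits, and 9 pathway genes rose and 0 fell; 2.74% of all genes tested rose with it. With the length and GC correction 7 members, 2 constitutive and 2 core subunits, 0 19S subunits and 11 pathway genes rose. With library sizes alone 6 constitutive subunits and 0 19S subunits rose and 3 pathway genes fell; 2 fell with no filter and 2 with DESeq2. These compare with 16 members, 10 constitutive, 9 core and 1 19S subunits and 18 pathway genes higher and 1 lower. Leaving out 1 library gave 8 to 16 members, 3 to 11 constitutive subunits, 3 to 11 core subunits, 0 to 2 19S subunits and 6 to 16 pathway genes higher and 0 to 2 lower; the fewest members came without control replicate 3 and the fewest pathway genes without myeloma replicate 3. The causes were not tested.

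Changes of sign came, among the named genes, in 7 uncalled ones. With library sizes alone the log2 fold change of Psmc3 was -0.0287, of Psmd4 -0.0370, of Psme4 -0.0392 and of Psmg3 -0.0194. With the replicate block Psmc3 had -0.00365, Psme4 -0.00857 and Psmg3 -0.147. With the length and GC correction Psmb3 had -0.0208, Psmc3 -0.111, Psmd4 -0.0802 and Psmg3 -0.0467. Over the fits that left out 1 library Psmc3ip ran from -0.0332 to 0.533, Psmd4 from -0.0183 to 0.0846, Psmd5 from -0.185 to 0.0452, Psme4 from -0.00979 to 0.0983 and Psmg3 from -0.0814 to 0.258. With 3 libraries a group, small changes of single subunits are not resolved.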
